A study of Mus musculus with 2 samples.

Results

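EP300 binding near 9 complement genes was examined in the liver of newborn mice by chromatin immunoprecipitation and sequencing (ChIP-seq). The genes were C3, Hc, C2, Cfb, Cfi, C8a, C9, Masp1 and Mbl2, out of 21938 protein-coding genes in GENCODE release M21. Every peak of the optimal list whose summit lay within 50 kb of any annotated transcription start site (TSS) of these genes was taken, which gave 40 of 26844 summits. The optimal list is the authors' list thresholded by the irreproducible discovery rate (IDR), a measure of how well peaks repeat between replicates. The study has 1 group of 2 replicates, all liver tissue of strain B6NCrl at 0 days of age, with the sex not collected. No genotype, transgene or treatment is given. The labels name a single biosample and donor for both replicates, so the spread between them may be technical. They do not say whether 1 animal or several gave the tissue.

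EP300, also called p300, acetylates histones and is brought to enhancers and promoters by DNA-binding factors. Complement is a cascade of blood proteins that marks microbes for uptake and punches pores in their membranes, and hepatocytes make most of its soluble components. It starts by the classical, lectin or alternative route. All routes meet at C3, are held back by inhibitors such as factor I, and end in the terminal components that assemble the membrane attack complex.

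The signal value given below is the authors' value per peak. Its scale is not stated, so it is read within a list only. The lists hold no read counts, and depth is unknown. Each replicate list held 300000 peaks, most of them weak, so the rank of a peak in its list (1 is the strongest) is given where it matters. The tissue label was set beside marker genes. A summit lay within 10 kb of a TSS for 5 of 6 hepatocyte genes, 6 of 6 erythroid genes and 0 of 6 macrophage genes. The strongest signals within 50 kb of the erythroid genes ran from 182 to 570.1, those of the hepatocyte genes from 23.2 to 291 and those of the 3 macrophage genes with a summit reached 58.7. Clec4f, Marco and Vsig4 had none. In whole tissue, a lower share of cells bound at a site and less binding per cell cannot be told apart.

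All 9 complement genes had at least 1 summit within 50 kb of a TSS, against 65.9% of protein-coding genes, and 0 had none. Each had between 3 and 7 summits, with a median of 5.00 against 2.00 over all genes. Having 3 or more summits was a feature of 39.5% of all genes. Within 1 kb, though not within 10 kb, the share of genes with a summit was close to the background. A summit lay within 10 kb of a TSS for 6 of the 9 genes (66.7%), against 41.0% of genes, and within 1 kb for 2 (22.2%), against 23.8%. Counting only summits with a peak in both replicates, the share within 10 kb was 44.4%, against 39.5%. The median distance from a gene to its nearest summit was 3.26 kb for the 9 genes and 18.5 kb for all genes. That 3.26 kb was the distance at Masp1, to a weak summit of 11.2 (rank 26026). The nearest summits of Mbl2 and Cfi had no replicate 2 peak. Only C3 and Cfb had a summit at their own promoter. No test was made over the 9 genes, since they were chosen with earlier results of these data known.

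**Figure D1:**
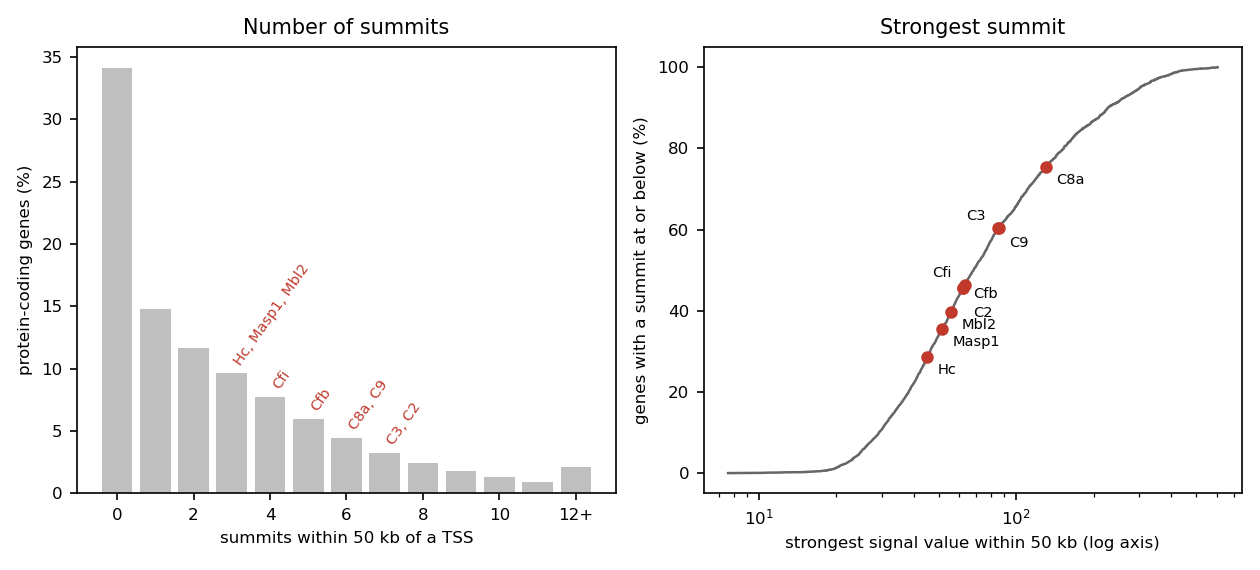
Left, bars give the percentage of all protein-coding genes with each number of optimal-list summits within 50 kb of a TSS, and names mark the bars that hold the 9 complement genes. Right, the line gives the cumulative percentage of genes with a summit by the signal value of their strongest one (log axis), and red points are the 9 genes. The genes have 3 to 7 summits, and their strongest signals run from 45.1 at Hc to 130.4 at C8a.

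Summit strength near the complement genes was close to that of the list. The strongest summit within 50 kb had a median signal of 62.1 over the 9 genes, against 68.3 over all genes with a summit, as the plot of summit numbers and strongest signals shows. Single summits had a median of 44.2, against 38.3 for the whole list. Of the 40 summits, 24 lay above the list's median. The top 10% of the list by signal held 1 of them (2.50%), the C8a intronic summit. The weakest had a signal of 7.40, near the 7.32 at which the list ends, while the list reached 633.

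Most of these summits were closer to another gene. A TSS of one of the 9 genes was the nearest one for 5 summits, 2 at C3 and 1 each at Cfb, C8a and Mbl2. At the other 35 the nearest TSS was that of a gene outside the 9, which for 4 summits in C8a was C8b, the neighbouring complement gene. Of the 40 summits, 12 (30.0%) lay at promoters, within 1 kb of a protein-coding TSS, against 23.4% of all summits, and 10 of those 12 promoters belonged to other genes. A further 11 summits were intronic, 14 intergenic, 3 in exons outside coding sequence and 0 in coding exons. Inside the complement genes themselves lay 9 summits, of which C8a held 5, Masp1 3 and C2 1. These counts of nearest genes, promoter owners and gene bodies have no share over all genes beside them. C2 and Cfb are neighbours and share 4 summits, so the genes are not independent.

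**Figure D2:**
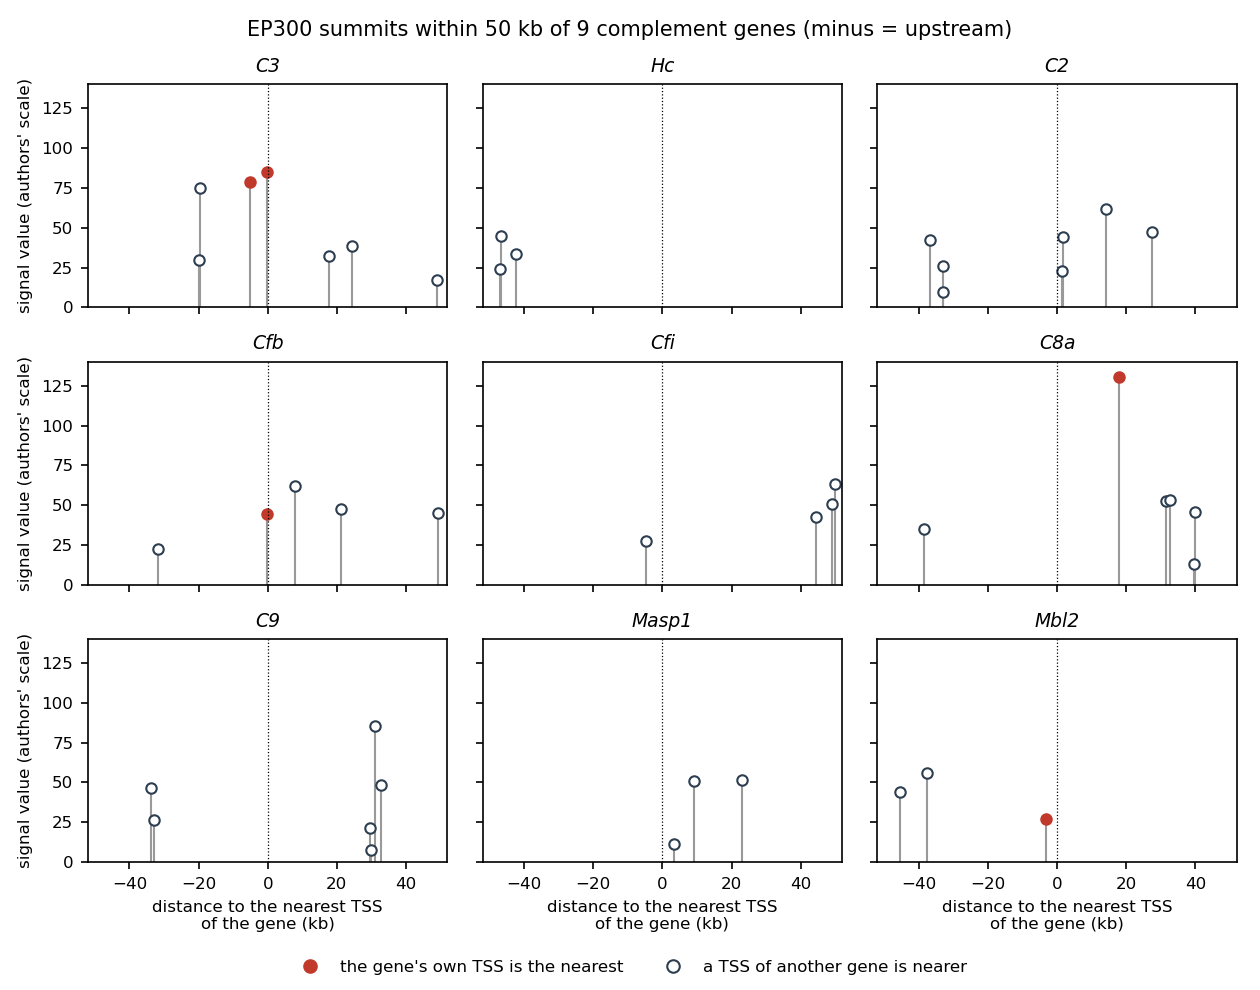
Each panel shows 1 gene, with the distance of each summit to the nearest TSS of that gene on the horizontal axis (kb, minus is upstream) and the authors' signal value on the vertical axis. Filled red points are the summits nearest to the gene's own TSS, and open points are those nearer to another gene. C3 and Cfb have a summit at the dotted line that marks the TSS, and in the other 7 panels no point lies within 1 kb of it.

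The windows reaching 50 bases to each side of 6 summits are printed because they show what lay under the summit with the highest signal value in the optimal list at C3, C8a, Masp1, Hc and C9, and under the nearest summit of Mbl2. The Mbl2 window was chosen after its values were seen. The window of the strongest Mbl2 summit, of 55.8, held none of the motifs searched and is not printed. Sequences are the plus strand of GRCm38 (mm10), read 5′ to 3′, from the RefSeq genome. Capitals mark matches to the motifs named in each line, on either strand. A match describes letters and does not show which protein bound.
C3, promoter, CEBP motif, chr17:57228167-57228267: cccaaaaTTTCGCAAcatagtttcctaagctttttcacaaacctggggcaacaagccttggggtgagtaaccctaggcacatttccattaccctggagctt
C8a, intron, NFI motif, chr4:104838503-104838603: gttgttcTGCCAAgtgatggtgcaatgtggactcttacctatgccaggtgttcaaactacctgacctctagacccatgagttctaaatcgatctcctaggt
Masp1, intron, FOXA motif, chr16:23497611-23497711: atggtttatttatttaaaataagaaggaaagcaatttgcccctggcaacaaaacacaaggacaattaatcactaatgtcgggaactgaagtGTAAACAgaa
Hc, upstream, HNF4 motif, chr2:35108096-35108196: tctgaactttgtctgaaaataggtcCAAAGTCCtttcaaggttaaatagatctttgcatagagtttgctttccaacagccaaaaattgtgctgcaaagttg
C9, downstream, GATA motif, chr15:6520870-6520970: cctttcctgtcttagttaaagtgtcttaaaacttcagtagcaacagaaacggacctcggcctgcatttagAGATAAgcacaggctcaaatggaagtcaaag
Mbl2, upstream, STAT then NR5A motif, chr19:30229642-30229742: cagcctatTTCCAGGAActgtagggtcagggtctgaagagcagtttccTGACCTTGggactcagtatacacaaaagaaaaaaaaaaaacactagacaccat

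C3, the central component that all routes cleave, had the strongest promoter summit of the 40 and, with C2, the most summits. The gene lies on the minus strand of chromosome 17 (57203970 to 57228136 on mm10). Its strongest peak (57228025 to 57228408) had its summit 81 bases upstream of a TSS, with a signal of 85.3, rank 4429 of the list. It had a signal of 57.6 in replicate 1 (rank 4367) and 28.6 in replicate 2 (rank 4614), so its rank was similar in both libraries. An intergenic summit 5.00 kb upstream was nearly as strong, at 78.5, with 55.9 in replicate 1 and 23.5 in replicate 2. The printed C3 window carries the CEBP letters at bases 8 to 15. CEBP factors bind the promoters of many acute-phase genes in the liver. The remaining 5 summits of C3 lay nearer to other genes. A pair at the Gpr108 promoter, 19.6 and 19.8 kb upstream, had signals of 75.2 and 29.6. Replicate 1 had 55.2 and 25.2 there, and replicate 2 had 1 peak of 19.7 under both. On the other side, summits of 32.4 and 38.5 lay nearest to Tnfsf14, a cytokine gene, and one of 17.2 lay nearest to Cd70. The Cd70 one was weak in replicate 2, at rank 285052.

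Cfb and C2 encode homologous proteases, factor B of the alternative convertase and C2 of the classical and lectin convertase, and sit side by side in the major histocompatibility complex region of chromosome 17. Cfb (34856374 to 34862518, minus strand) had a promoter peak (34862387 to 34862770) with its summit 61 bases upstream of a TSS. Its signal was 44.5, with 32.3 in replicate 1 (rank 10201) and 12.7 in replicate 2 (rank 14256). The replicate 2 summit stood 121 bases from it. This window held a STAT motif match. C2 (34862604 to 34898265, minus strand) had no summit within 1 kb of any of its 8 start sites. The same Cfb promoter summit lay 1.83 kb from an internal C2 TSS, and a weaker one of 22.7 lay 1.39 kb from another, at the promoter of Zbtb12. That one had 19.6 in replicate 1 and 6.34 in replicate 2.

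The strongest summit of both Cfb and C2 lay at neither gene. It stood 3 bases from the start of Skiv2l, a gene of RNA decay, 7.93 kb from an internal Cfb TSS and 14.2 kb from an internal C2 TSS. Its signal was 62.1, with 42.1 in replicate 1 and 16.3 in replicate 2. Another shared promoter summit, at Stk19, had 47.6, with 34.9 in replicate 1 and 10.1 in replicate 2. The Stk19 summit lay more than 50 kb from the 5′ end of C2 and counts for C2 through internal start sites. Cfb alone had a summit of 45.2 nearest to Cyp21a1, a steroid 21-hydroxylase gene, with 29.6 in replicate 1 and 16.1 in replicate 2. C2 alone had 3 summits at Neu1, a lysosomal sialidase gene, with 42.6, 25.7 and 9.44. Replicate 1 had 29.3, 18.9 and a peak of rank 37316 at these, and replicate 2 had 12.5 at the first and 1 peak of 6.35 (rank 49799) under the other two. The number of CpG pairs in the windows was 11 at Skiv2l and 9 at Stk19, against 0 at the Cfb promoter.

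The 2 genes of the lectin route had no summit at their start sites. Mbl2, a mannose-binding lectin that recognises microbial sugars (chromosome 19, 30232942 to 30239687, plus strand), had its nearest summit 3.25 kb upstream with a signal of 26.8. Replicate 1 had a peak of 22.0 there (rank 17115), and replicate 2 had no peak among its 300000. The window printed for it holds a STAT match at bases 9 to 17 and an NR5A match at bases 49 to 56. Its stronger summits, of 55.8 at 37.7 kb and 43.8 at 45.5 kb upstream, were nearer to Gldc, the glycine decarboxylase gene. Both were present in each replicate, with 39.7 and 27.0 in replicate 1 and 15.3 and 16.9 in replicate 2.

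Masp1, a protease that works with the lectins (chromosome 16, 23449417 to 23520815, minus strand), had all 3 of its summits in its own introns. The nearest, 3.26 kb from a TSS, ranked 26026 in the list at 11.2, with 15.9 in replicate 1 (rank 25909) and a lower value in replicate 2 (rank 22636). The replicate 2 summit stood 326 bases from it, the largest offset of the set. The other two were 51.1 at 9.21 kb and 51.4 at 22.9 kb. They had 41.8 and 38.6 in replicate 1, against 14.0 and 12.1 in replicate 2. Each replicate thus had the summit at 9.21 kb higher, and the optimal list the one at 22.9 kb by a small margin. An HNF4 motif lay under the summit at 9.21 kb and a FOXA motif under the one at 22.9 kb, at bases 92 to 98 of the printed window. HNF4 and FOXA factors are central to hepatocyte identity. The nearest TSS of all 3 summits was that of an Rtp4 transcript annotated at 23520291 on the opposite strand, although they lie inside Masp1.

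Cfi encodes factor I, the protease that inactivates C3b and C4b (chromosome 3, 129835884 to 129875332, plus strand). Its nearest summit, 4.63 kb upstream, lay at the promoter of Gar1, a gene of small nucleolar ribonucleoproteins, with a signal of 27.3. Replicate 1 had 29.4 there and replicate 2 had no peak. The other 3 summits were at Pla2g12a, a phospholipase gene, at the edge of the window. The one at its promoter had 42.3, with 38.6 in replicate 1 and 5.84 in replicate 2. The intronic ones had 50.8 (31.6 in replicate 1 and 19.1 in replicate 2) and 63.0. The last was stronger in replicate 2 (35.5, rank 3445) than in replicate 1 (rank 14487). All 3 held a GATA match.

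Of the terminal components, C8a had the strongest summit of the whole set. C8a encodes the alpha chain of C8, which inserts into the target membrane (chromosome 4, 104815679 to 104876398, minus strand). The peak (104838361 to 104838744) lay in an intron 18.0 kb from an internal TSS of the gene, with a signal of 130.4 and rank 2450. With protein-coding transcripts only, the nearest TSS was that of Gm17662, at 18.8 kb. It had 74.9 in replicate 1 (rank 2994) and 53.8 in replicate 2 (rank 1930), the highest values of the set in both libraries. The printed window carries an NFI match at bases 8 to 13. Further along the gene lay intronic summits of 52.7 and 53.4, with 31.2 and 35.8 in replicate 1 and 20.2 and 18.2 in replicate 2, and a pair of 12.9 and 45.4 in exon sequence outside the coding part. Replicate 2 put 1 peak of 26.1 under that pair, where replicate 1 had peaks at ranks 49202 and 16807. The neighbouring C8b, the beta chain gene, shares the 130.4 summit at a distance of 39.3 kb. The only upstream summit, 35.3, lay in an intron of Fyb2, with 27.6 in replicate 1 and 4.78 (rank 119149) in replicate 2. The C8a gene body held 5 of the 6 summits, and all 5 had a peak in both replicates.

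Hc and C9 had no summit inside the gene or within 10 kb. Hc encodes C5, the component whose cleavage starts the terminal steps (chromosome 2, 34983331 to 35061438, minus strand). Its 3 summits lay upstream. One of 33.8 stood at 42.4 kb, nearest to AI182371, with 12.5 in replicate 1 and 20.8 in replicate 2. Those at 46.7 and 47.0 kb stood nearest to Cntrl, a centriole gene, with 45.1 and 24.4. The 45.1 summit had 32.5 in replicate 1 and 12.9 in replicate 2, and its printed window holds the HNF4 letters at bases 26 to 33. The 24.4 summit had 23.9 in replicate 1 and 4.96 in replicate 2.

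C9, which forms the ring of the membrane pore (chromosome 15, 6445327 to 6498751, plus strand), had its nearest summit 29.6 kb downstream of an internal TSS, with 21.5. Another of 7.40 stood close to it, and each replicate had 1 peak under the pair, 14.4 in replicate 1 and 12.7 in replicate 2. All 4 downstream summits lay past the end of C9 and more than 50 kb from its 5′ end, and were kept through an internal TSS. They lay nearest to Fyb, an adaptor gene of blood cells, and the strongest, 31.0 kb from that internal TSS, had 85.3. This strongest summit was high in replicate 1 (52.7, rank 4994) and in replicate 2 (37.2, rank 3230), and its window holds a GATA match at bases 71 to 76. Fyb's own promoter summit had 48.6, with 25.1 in replicate 1 and 23.9 in replicate 2, and also held a GATA match. The 2 upstream summits, 46.5 and 26.5, lay in introns annotated to Dab2, an endocytic adaptor gene. They were much higher in replicate 1 (36.5 and 18.0) than in replicate 2 (7.88 and a peak of rank 194170).

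At the edges of the window the choice of 50 kb, and of any annotated TSS, mattered for some genes. The farthest summits kept were those of Cfi at 49.9 kb (63.0), Cfb at 49.3 kb (45.2) and C3 at 49.1 kb (17.2). Each of these distances was to a TSS inside the gene, and each summit lay more than 50 kb from the 5′ end of its gene. The nearest ones left out were those of C9 at 50.2 kb (70.2, nearest to Fyb), Hc at 54.2 kb (31.8) and C2 at 54.3 kb (143, nearest to Hspa1b).

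By overlap of at least 1 base, a peak in both replicates was about as frequent at the complement summits as elsewhere. The correlation of the signals was lower, which was not tested. A replicate 1 peak overlapped all 40 summits and a replicate 2 peak 38, so 38 (95.0%) had both, against 95.7% of the list. This counts any of the 300000 peaks and 1 base of overlap. Stricter counts of both have no share of the list beside them. With at least 50% of the peak overlapped 34 had both, with replicate summits within 100 bases 31, and with only each replicate's strongest 26844 peaks 26. Taken singly, those strongest peaks covered 34 summits (85.0%, against 82.4% of the list) in replicate 1 and 28 (70.0%, against 74.2%) in replicate 2. Those without a replicate 2 peak were the nearest summits of Cfi and Mbl2. Counting only summits with a peak in both replicates, 4 of the 9 genes (44.4%) had one within 10 kb, against 39.5% of genes. Those were C3, C2, Cfb and Masp1. Of the 40 summits, 28 (70.0%) were in the authors' conservative list, against 74.4% of all.

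Across the 38 matched summits the replicate signals had Spearman's rho of 0.357, against 0.695 over 25702 matched summits of the list and 0.590 over the 23236 within the same range of signal. Pearson's r on log2 values was 0.416, against 0.777. These are descriptions across sites, which share the same libraries, and 10 of the 40 summits form 5 close pairs within 400 bases, 4 of which share 1 replicate 2 peak. The median log2 ratio of replicate 1 over replicate 2 was 1.15 (SD 0.90), against 0.94 (SD 0.74) for the list. Replicate 2 was the higher one at 4 of the 38 (10.5%), against 7.65% of the list. In the plot of matched peaks these 4 lie where the replicate 2 value exceeds the replicate 1 value. They were the Hc summit at 42.4 kb, the Cfi summit at 49.9 kb and the C8a pair.

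**Figure D3:**
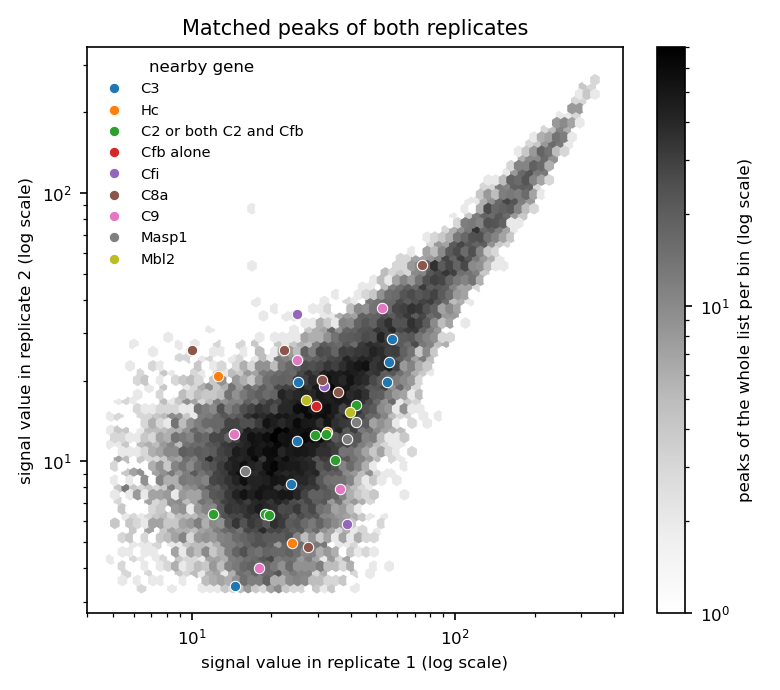
Signal value of the matched peak in replicate 1 (horizontal, log scale) and replicate 2 (vertical, log scale) for the 38 complement summits with both (coloured by gene), over grey bins that count all 25702 matched summits of the list. The C8a intronic summit lies highest at 74.9 and 53.8, and most other coloured points lie in the broad lower part of the cloud.

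The start sites that lacked an optimal summit were not empty in the replicate lists. With any of the 300000 peaks counted, all 9 genes had a replicate 1 peak within 1 kb of a TSS (58.6% of genes did), 8 had a replicate 2 peak (53.0%) and 8 had both (44.7%), not always at the same start site. Masp1 was the gene without one in replicate 2. Apart from C3 and Cfb these peaks were low. At C8a replicate 1 had 10.4 (rank 46363) and replicate 2 had 9.06 (rank 23172), with summits 167 and 172 bases upstream. At Hc the highest were 7.58 (rank 92267) in replicate 1 and 4.99 (rank 101620) in replicate 2, at different start sites. At Mbl2 they were 5.83 (rank 192725) in replicate 1 and 3.97 (rank 197025) in replicate 2, on opposite sides of its start site. C2 had 13.2 (rank 32733) in replicate 1 and 8.39 (rank 26463) in replicate 2, at different start sites. C9 had 7.97 (rank 80777) in replicate 1 and 4.46 (rank 143415) in replicate 2, both at an internal start site. Cfi had ranks of 42081 in replicate 1 and 162601 in replicate 2, again at different start sites, and Masp1 had 11.6 (rank 39196) in replicate 1. None of these 7 genes had a start site peak among the 26844 strongest of both replicates. The shares of all genes were not matched for the number of start sites, of which C2 had 8, Cfb 7 and Mbl2 1.

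Motifs under the complement summits were counted within 50 bases on each side, on both strands, with fixed letters. Of the 40 summits, 24 (60%) held at least 1 of 11 motifs, against 56.9% of all summits. At least 1 of the HNF4, HNF1, CEBP and FOXA motifs, which factors of hepatocytes bind, stood at 9 of the 40 (22.5%), against 14.7% of all. HNF4 (CAAAGTCC) matched at 2 summits (5.00%), against 1.40% of all, nearest to Cntrl and Rtp4. CEBP (TTGCNNAA) matched at 6 (15%), against 8.93%. Within 50 kb of C3 lay 3 of those, nearest to C3 itself, Gpr108 and Tnfsf14. The others were nearest to Neu1, Cyp21a1 and Pla2g12a. FOXA (TGTTTAC or TATTTAC) matched at 1 (2.50%), against 4.82%, nearest to Rtp4. HNF1 (TTAATNATT) matched at 0, against 0.548%. NFI (TTGGCA) matched at 2 (5.00%), against 6.98%, and NR5A (CAAGGTCA) at 1 (2.50%), against 1.06%.

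Motifs of factors that signals switch on were mixed. STAT (TTCNNNGAA), bound by factors that act below cytokine receptors, matched at 6 summits (15%), against 4.95%. These were 2 at C3, 2 shared by C2 and Cfb, 1 at C9 and 1 at Mbl2. AP-1 (TGANTCA) matched at 4 (10%), against 5.62%. NF-kB (GGNNTTTCC) and the interferon element ISRE (GAAANNGAA) matched at 0 each, against 2.30% and 3.15%. GATA factors act in blood cells and in liver. Their motif (AGATAA, with A or T as the first letter) matched at 7 (17.5%), against 32.8%. Of these 7, Cfi had 3, C9 had 2, and Cfb and C8a had 1 each. The nearest gene at each was another one, as it was at 35 of all 40 summits. With 40 summits a single match is 2.50%, so the shares of rare motifs rest on 1 to 6 sites. The GC content of the windows had a median of 46.0%, against 47.5%, and 13 windows (32.5%) held no CpG, against 25%.

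**Figure D4:**
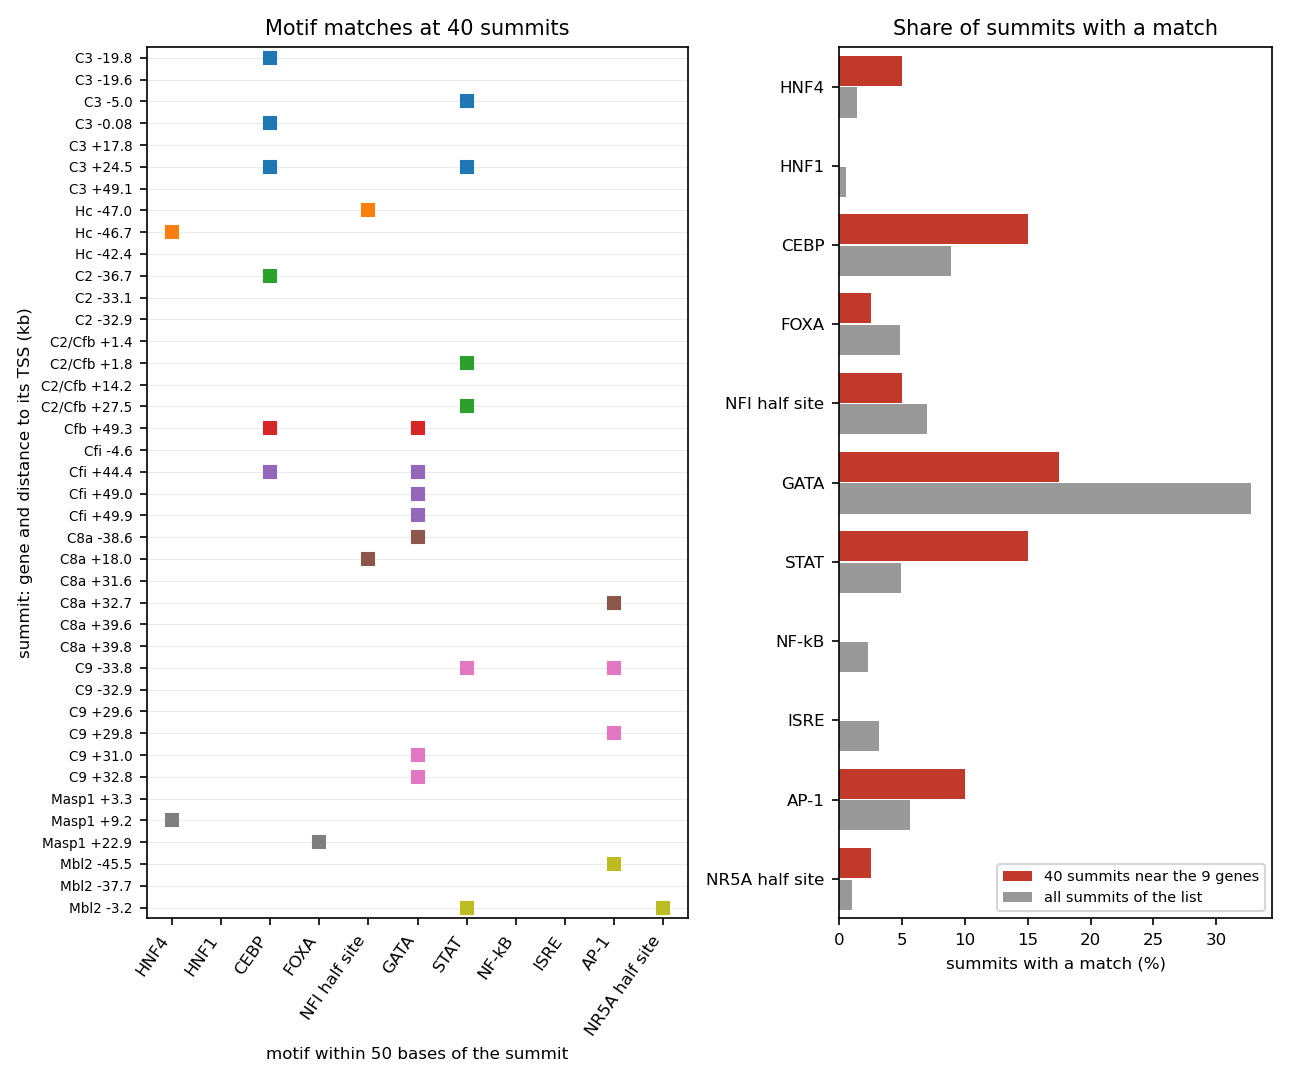
Left, squares mark which of the 11 motifs (horizontal) matched within 50 bases of each of the 40 summits (vertical, named by gene and distance in kb, coloured by gene). Right, bars give the percentage of summits with a match, red for the 40 complement summits and grey for the whole list. GATA is lower near the complement genes (17.5% against 32.8%) and STAT higher (15% against 4.95%), without a test.

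Other genes of the complement system were described from a list of 42 symbols, of which 40 matched the annotation. A summit lay within 50 kb for 34 of the 40 (85.0%, against 65.9% of genes), within 10 kb for 16 (40%, against 41.0%) and within 1 kb for 10 (25%, against 23.8%). Their median number of summits was 2.50, against 2.00 for all genes. The 6 with none within 50 kb were C1rb, Colec10, C6, C8g, Clu and Vsig4. Among soluble regulators 4 of 7 had a promoter summit, namely Cfhr2, Vtn, Cpn1 and Cpn2, and among membrane regulators 3 of 6 did, Cd46, Cd55 and Cr1l. In the lectin route Mbl1 and Fcna had one, and in the classical route C4b. The alternative route beyond Cfb (Cfd and Cfp), the other terminal genes and the receptors had 0.

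The strongest summits of the wider list stood at a distance from their genes. Serping1, the C1 inhibitor gene, had 568 at 36.6 kb, nearest to Ube2l6. Fcnb, a ficolin gene, had 488 at 20.2 kb, nearest to Fcnb itself. Cd59a and Cd59b, inhibitors of the membrane pore, had 419, nearest to A930018P22Rik, and 227. The 227 summit stood 27.6 kb from Cd59b but was nearest to Cd59a, at 2.82 kb. C5ar1, the receptor of the C5a fragment, had 222, nearest to Ccdc9. Cd55b, a decay-accelerating factor gene, had 163, nearest to Cd55b itself. All 6 were above the 130.4 of C8a.

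**Figure D5:**
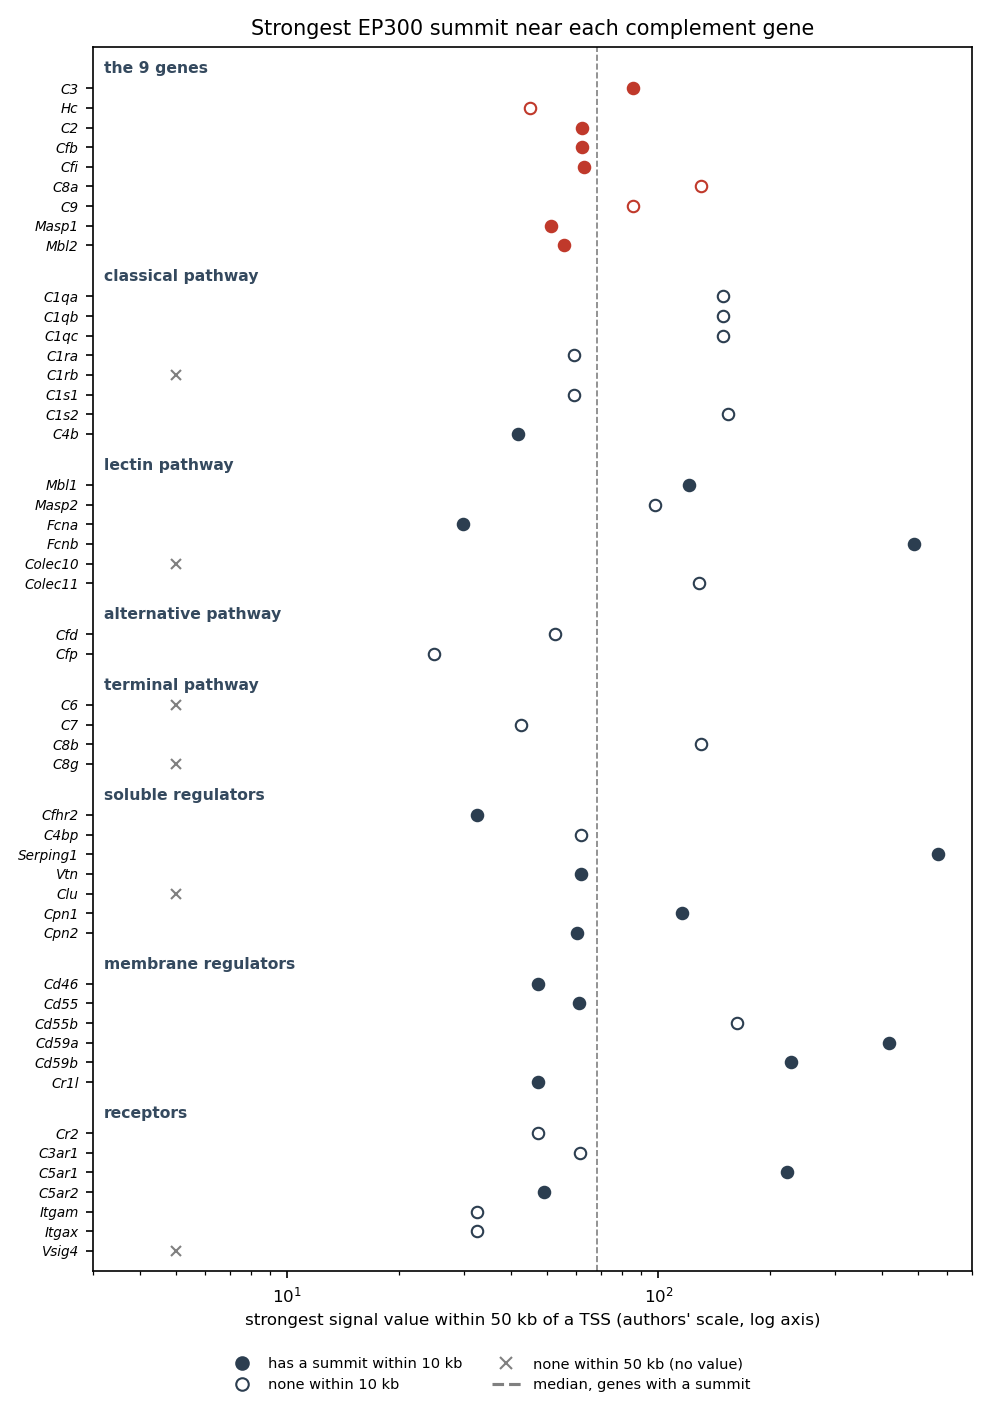
Strongest signal value within 50 kb of a TSS (horizontal, log axis) for each complement gene analysed, grouped by role, with the 9 genes in red at the top. Filled points are genes with a summit within 10 kb, open points have none within 10 kb, crosses mark genes with none within 50 kb (they carry no value), and the dashed line is the median of 68.3 over all genes with a summit. Of the 9 genes, C3, C8a and C9 lie to the right of the line.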

How the data were processed

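The deposited files were 5 narrowPeak lists from EP300 ChIP-seq of newborn mouse liver. There was 1 list per replicate, 1 pooled list, and an optimal and a conservative IDR list. Per the file headers, they were made on mm10 from aligned reads with a control. The aligner, peak caller, IDR threshold and versions were not given in the sources used here. The deposited column 7 is the authors' signal value, of unstated scale. In the replicate lists the deposited column 9 is a −log10 q-value. In the other lists it falls below 0 and was treated as a score, and the IDR lists hold a deposited IDR score up to 1000. No list gives reads, so depth and its precision are unknown. The files held 0 columns of other samples.

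The optimal list was analysed on chromosomes 1 to 19 and X, 26844 of 26883 peaks. Summits (column 2 plus column 10, printed 1-based) were set against all GENCODE M21 transcripts of 21938 protein-coding genes. A replicate peak matched when it overlapped by at least 1 base, and the nearest summit was taken. The reference was GRCm38. The handling of reads that fit several copies was not stated, so values at repeated genes such as Cfhr2, Cd59a and Cd59b are uncertain. Python 3.11.15, pandas 2.3.3, numpy 2.4.6, scipy 1.17.1 and pysam 0.24.0 were used, and the counting was checked on simulated data. All 9 genes were named with their strongest and nearest summits. Of the other complement genes, those with the 6 strongest summits, with a summit within 1 kb, or with none were named. Summits beyond this rule were chosen after their values were seen. Some listed complement genes are not reported here and were left out of the counts. Genes, lists and motifs were chosen with earlier results of these data known. The alternatives tried were another list, strength, window, start site set, assignment, replicate match, motif window and single replicates.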

Additional observations from a re-analysis of the deposited data

How the results depend on the processing

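No paired analysis was possible because the study has only 1 group. All 9 genes had a summit within 50 kb in the conservative list (62.9% of all genes did) and in the strongest 50% of peaks (52.7%). So did all 9 with protein-coding transcripts only, and within 100 kb (76.5% of all genes). The same held in either replicate's own highest peaks (9 to 9 with 1 replicate left out), against 67.2% of all genes in replicate 1 and 66.9% in replicate 2. The assignment mattered most. At any distance, 4 of the 9 genes (44.4%) had a TSS nearest to some summit, against 43.7% of all genes. With each summit given only to its nearest TSS, 4 of the 9 genes had a summit within 50 kb and 3 within 10 kb, there were 5 summits, 4 with both replicates, and the median signal was 78.5. With protein-coding transcripts as well, an alternative chosen after seeing the data, these were 3 genes, 3 genes, 4 summits and 3 summits, with a median signal of 61.5, against 44.2 with any TSS. Among the strongest 50% of peaks 24 summits were left, 24 with both replicates. Within 10 kb there were 9 summits, 7 with both replicates. Motifs matched at 11 summits within 25 bases, a count with no share of the list beside it, against 24 within 50 bases. Leaving out 1 replicate gave 37 to 38 summits and 6 to 7 genes within 10 kb. Of all genes, 40.8% had one within 10 kb in replicate 2 alone and 43.5% in replicate 1 alone. Requiring a conservative peak left 4 genes within 10 kb, a count with no share of all genes beside it. The scale of the signal, the depth of either library and the animals behind the replicates are unknown. Single weak summits therefore carry little weight.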
